A study of Bos taurus with 6 samples.

Results

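Small leucine-rich proteoglycans and matricellular glycoproteins are secreted proteins that sit among the collagen fibres around a cell. Here 10 of their genes were followed in BEND cells, a bovine line established from endometrial epithelium: the proteoglycans DCN, LUM and BGN, the thrombospondin-repeat glycoproteins THBS1, THBS2 and SPON1, and the glycoproteins SPARC, TNC, POSTN and FBLN1. They were chosen with earlier results of these data known and looked up by symbol among the 20958 genes of the deposited count table. All 10 were found, and all 10 were among the 12217 genes abundant enough to be tested. RNA sequencing covered 3 libraries of cells transfected with a bta-miR-200b mimic, a synthetic duplex that supplies the mature microRNA, and 3 of cells transfected with a mimic negative control, called NC. Both groups were grown in DMEM with serum and transfected at high confluence, and all 6 samples carry the same treatment label, cell apoptosis. No dose or time after transfection is given, the line is a single source of cells, and separate cultures are not stated, so the p-values measure a spread between libraries that may be technical.

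As background, small leucine-rich proteoglycans are short horseshoe-shaped core proteins, most with chondroitin, dermatan or keratan sulphate chains, that bind collagen and set how fibrils grow. Matricellular proteins add little mechanical strength. They bind integrins, other receptors, proteases and growth factors, and many loosen cell adhesion during tissue remodelling. In the uterus both kinds are known mainly as products of stromal cells. The microRNA miR-200b is known for repressing ZEB1 and ZEB2, which keeps cells epithelial.

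Library totals ran from 19212694 to 21129547 counts, and the 10 genes took 1.13% to 1.25% of them, of which SPARC alone took 0.905% to 1.02%. The cells carried both epithelial and stromal transcripts. Of 10 epithelial markers 7 were tested. KRT8 averaged 4494 CPM (read counts scaled to a common library size) in the NC libraries and KRT19 averaged 3917, but CDH1 averaged 11.3, EPCAM had 3 reads over the 3 NC libraries and CLDN4 had none in any library. Of 12 stromal markers, chosen without the genes described here, 11 were tested, with COL1A2 at 11640 CPM, COL1A1 at 6622 and VIM at 3942 in the NC libraries and TCF21 at 0 throughout. The libraries did not separate evenly: the chi-square per degree of freedom between mimic replicate 3 and NC replicate 3, 8.28, was below that between mimic replicates 1 and 3, 11.5.

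With the mimic, 4 of the 10 genes fell, 1 rose and 5 did not pass the test. The fitted changes were −55.7% for SPON1, −30.1% for TNC, −25.4% for DCN and −22.9% for THBS2, and THBS1 rose by 49.8%. Across all tested genes, edgeR's quasi-likelihood test called 6.45% at a Benjamini-Hochberg adjusted p under 0.05, made up of 2.15% lower and 4.3% higher. The values of the groups did not overlap for the same 5 genes, 4 below NC and 1 above, while 10.4% of all tested genes lay below NC without overlap, 11.4% lay above, and 21.8% did either. The median log2 fold change of the 10 genes was −0.18, against 0.00 for all tested genes, and 9 of the 10 were below 0, against 49.7% of all tested genes. An unadjusted p under 0.05 was reached by 8 of the 10 genes and by 18.5% of all tested genes. Because the 10 genes were chosen with earlier results of these data known, these shares describe them and are no test of the group. Fewer cells of a type and less RNA per cell cannot be told apart in these bulk libraries.

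**Figure D1:**
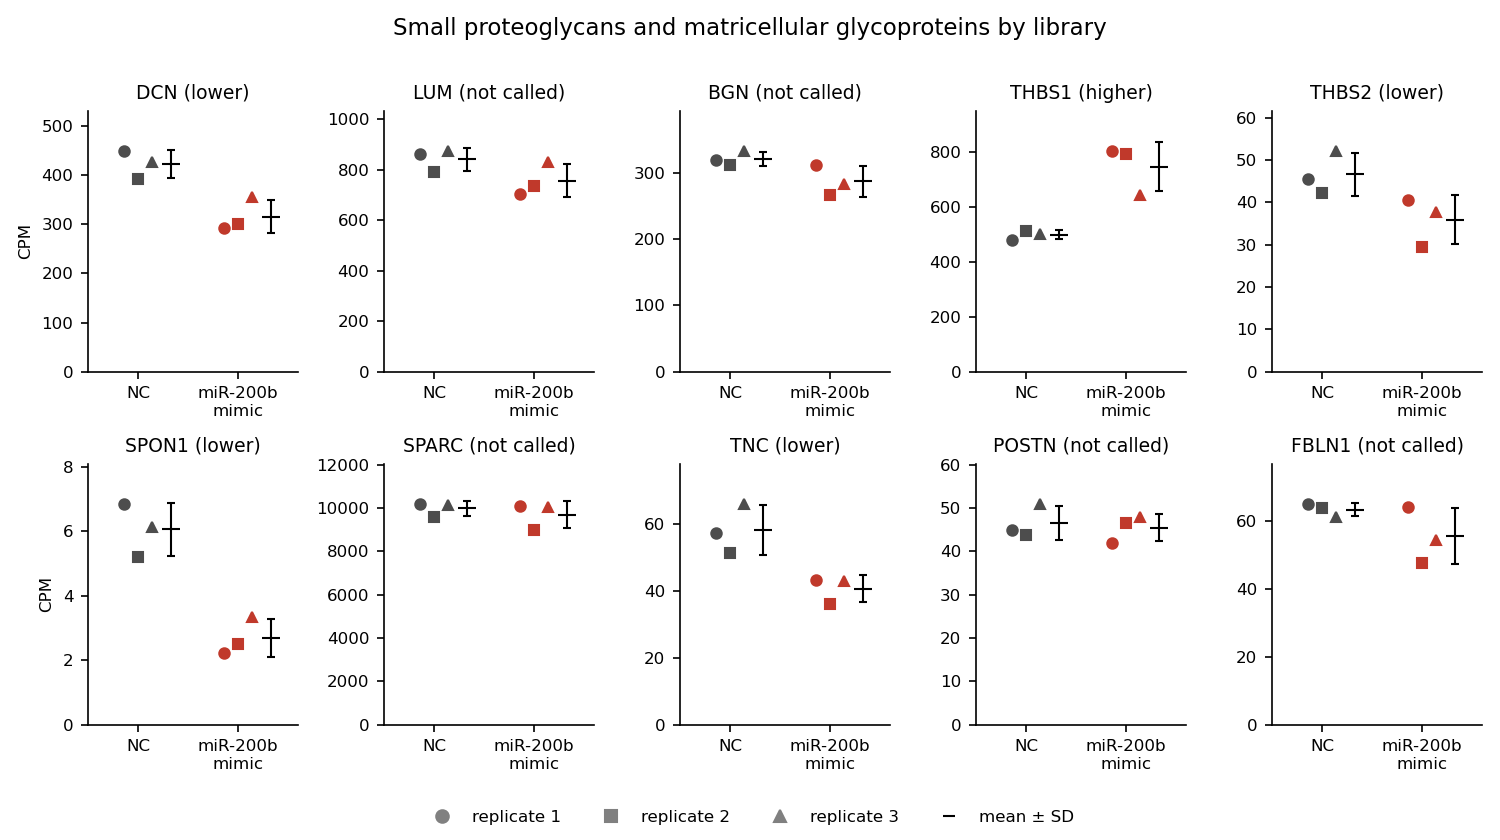
CPM of each gene in each library, by group, on axes that start at 0; circles, squares and triangles are replicates 1, 2 and 3, and the bars give the mean and SD of 3 libraries. All 3 mimic libraries lie below the NC libraries for DCN, THBS2, SPON1 and TNC and above them for THBS1, while the groups overlap for LUM, BGN, SPARC, POSTN and FBLN1.

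Among the small proteoglycans, DCN fell while LUM and BGN did not pass. DCN encodes decorin (GeneID 280760), which binds collagen fibrils, TGF-beta and several receptor tyrosine kinases. It stood at 292, 301 and 355 CPM in mimic replicates 1 to 3 and at 449.5, 393 and 427 CPM in NC replicates 1 to 3. Every mimic library was below every NC library, and mimic replicate 3 was the closest to NC. The group means were 316 ± 34.1 and 423 ± 28.3 CPM (SD, n = 3 per group). The log2 fold change was −0.42 ± 0.08 (SE), with a 95% interval of −0.58 to −0.26 and an edgeR adjusted p of 0.0010. With any single library left out, it stayed between −0.51 and −0.37, at an edgeR adjusted p of 0.018 or less.

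LUM encodes lumican (GeneID 280847), a keratan sulphate proteoglycan that spaces collagen fibrils. Its levels were 704, 737 and 833 CPM with the mimic and 861, 790 and 875 CPM in NC replicates 1 to 3. The groups overlapped, because mimic replicate 3 was above NC replicate 2. The log2 fold change of −0.15 ± 0.07 had an edgeR adjusted p of 0.261, and its 95% interval ran from −0.30 to −0.0023.

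BGN encodes biglycan (GeneID 280733), the closest relative of decorin and a ligand of Toll-like receptors. It measured 312, 267 and 283 CPM with the mimic and 319, 312 and 333 CPM in NC replicates 1 to 3. The groups overlapped slightly, at mimic replicate 1 and NC replicate 2. Its log2 fold change of −0.16 ± 0.07 had an interval of −0.31 to −0.015 and an edgeR adjusted p of 0.212. The intervals of LUM and BGN, not adjusted for the number of genes tested, both lie wholly on the negative side. These libraries therefore do not show that either was unchanged. The lower ends, −0.30 and −0.31, lie inside the interval of DCN.

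DCN and LUM lie next to each other in the RefSeq gene table, with KERA, the gene of the corneal proteoglycan keratocan, beyond LUM. KERA had no read in any library. Because DCN and LUM tended to be high in the same libraries, their ratio was taken within each library, a choice made after their values were seen. These ratios are not corrected for transcript length, so they describe only a shift between libraries. DCN to LUM was 0.415, 0.408 and 0.426 across the mimic libraries, in replicate order, and 0.522, 0.498 and 0.488 across the NC libraries. The spread within a group was small beside the gap between groups, with SDs of 0.00923 and 0.0174. The mean log2 ratio was lower by 0.27 with the mimic, and the exact two-sided permutation test gave p = 0.1, the smallest that 3 against 3 libraries can give. DCN to BGN was 0.935, 1.13 and 1.25 with the mimic and 1.41, 1.26 and 1.28 in NC. Here mimic replicate 3 lay just under NC replicate 2, and the mean log2 difference of −0.26 had the same exact permutation p of 0.1. Without mimic replicate 1 that difference was −0.15, and without NC replicates 1, 2 or 3 it was −0.21, −0.29 and −0.28. Each of these omissions gave an exact permutation p of 0.2.

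The thrombospondin-repeat genes moved in both directions. THBS1 encodes thrombospondin 1 (GeneID 281530), a trimeric glycoprotein that activates latent TGF-beta and binds CD36 and CD47. It was at 803, 793 and 642 CPM in mimic replicates 1 to 3 and at 480.1, 513 and 500.0 CPM in NC replicates 1 to 3. All mimic libraries were above all NC libraries, with mimic replicate 3 again the closest, and the mimic libraries varied more, with a coefficient of variation of 12.1% against 3.34%. This was a log2 fold change of 0.58 ± 0.08, a 1.5-fold rise, with a 95% interval of 0.42 to 0.74 and an edgeR adjusted p of 1.83e-05. It stayed between 0.53 and 0.68 with any single library left out. THBS1 overlaps FSIP1 in the RefSeq gene table, but FSIP1 had 4 reads over the NC and 10 over the mimic libraries.

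THBS2 encodes thrombospondin 2 (GeneID 338092), the close paralog that lacks the TGF-beta activating sequence and helps clear the protease MMP2. It measured 40.5, 29.5 and 37.8 CPM with the mimic and 45.4, 42.2 and 52.1 CPM in NC replicates 1 to 3. The groups did not overlap, but the gap between mimic replicate 1 and NC replicate 2 was narrow. THBS2 changed by −0.37 ± 0.10 on the log2 scale, with an interval of −0.59 to −0.16 and an edgeR adjusted p of 0.0308. This call rested on 3 libraries: leaving out mimic replicate 2 gave an edgeR adjusted p of 0.258, leaving out NC replicate 3 gave 0.174 and leaving out NC replicate 1 gave 0.0759. Without mimic replicate 2 the log2 fold change was −0.25.

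Because the paralogs moved apart, the ratio of THBS1 to THBS2 shifted within libraries. It was 19.8, 26.8 and 17.0 across the mimic libraries, in replicate order, and 10.6, 12.2 and 9.59 across the NC libraries. Every mimic library was above every NC library, and mimic replicate 2, where THBS2 was lowest, had the highest ratio. The mean log2 ratio was 0.96 higher, a 1.94-fold shift, with an exact two-sided permutation p of 0.1, the smallest possible here. All mimic libraries were above NC for THBS1 and below NC for THBS2, so the groups could not overlap and this p was fixed beforehand. Both genes were chosen with their directions known, so the ratio describes their unequal change and is no further test. Leaving out single libraries gave a shift of 0.78 to 1.11 on the log2 scale.

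**Figure D2:**
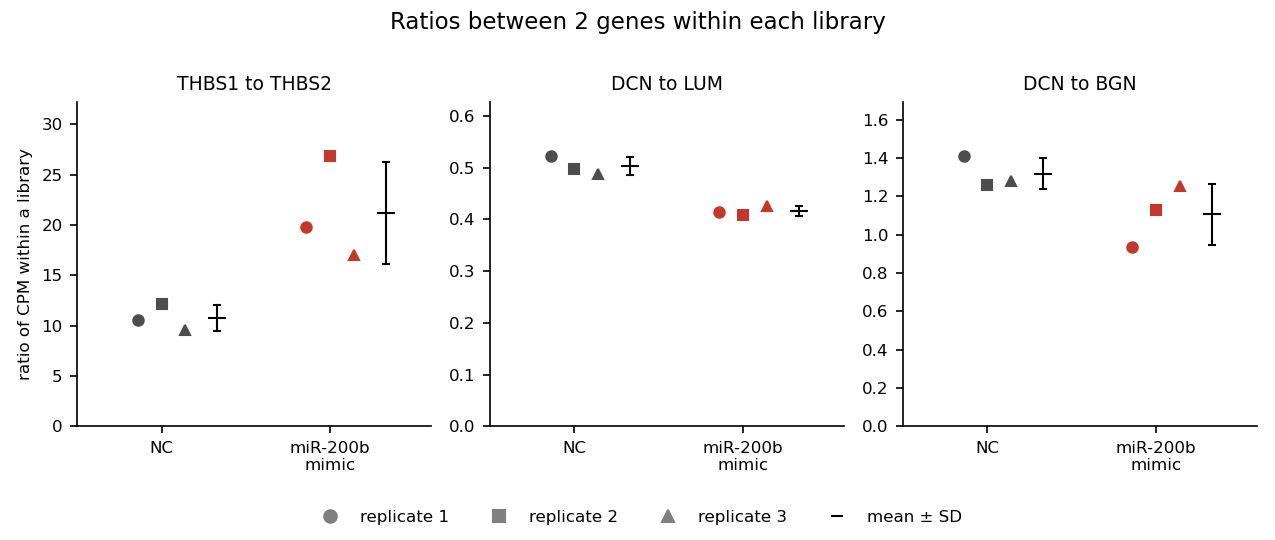
Ratio of CPM between 2 genes within each library, for THBS1 to THBS2, DCN to LUM and DCN to BGN; symbols are replicates 1 to 3 and bars give the mean and SD of 3 libraries. The mimic libraries lie above NC for THBS1 to THBS2 (17.0 to 26.8 against 9.59 to 12.2) and below NC for DCN to LUM (0.408 to 0.426 against 0.488 to 0.522).

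SPON1 encodes F-spondin (GeneID 282866), a thrombospondin-repeat protein known from axon guidance in the spinal cord. It was the scarcest of the 10 in reads, with 46, 51 and 68 reads across the mimic libraries and 139, 105 and 118 across the NC libraries. Its levels were 2.22, 2.49 and 3.34 CPM with the mimic and 6.85, 5.20 and 6.14 CPM in NC. The groups were clearly apart, and mimic replicate 3 was the closest to NC. Counting error alone gives a coefficient of variation of 13.5% at the mean mimic count, against an observed 21.9%. On the log2 scale SPON1 changed by −1.18 ± 0.19, with a 95% interval of −1.56 to −0.79 and an edgeR adjusted p of 0.000164. Without any single library it lay between −1.36 and −1.06, at an edgeR adjusted p of 0.00703 or less. The gene overlaps an uncharacterised locus, a microRNA gene and a tRNA gene in the RefSeq table, and no source used here states whether counting used strand, so reads of these loci could not be told apart.

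Of the remaining glycoproteins TNC fell. TNC encodes tenascin C (GeneID 540664), a hexameric protein that weakens integrin adhesion to fibronectin and marks remodelling matrix. It stood at 43.1, 35.9 and 42.9 CPM in mimic replicates 1 to 3 and at 57.2, 51.2 and 65.9 CPM in NC replicates 1 to 3. All mimic libraries were below all NC libraries, and mimic replicate 2 was the lowest. The log2 fold change was −0.52 ± 0.09, with a 95% interval of −0.71 to −0.32 and an edgeR adjusted p of 0.00101. With single libraries left out it ranged from −0.60 to −0.42, at an edgeR adjusted p of 0.0214 or less. TNC overlaps uncharacterised loci in the RefSeq table.

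SPARC, POSTN and FBLN1 did not pass. SPARC (GeneID 282077), a collagen-binding glycoprotein also called osteonectin, was at 10079, 8973 and 10032 CPM with the mimic and at 10196, 9601 and 10162 CPM in NC replicates 1 to 3. The groups overlapped widely. Its log2 fold change of −0.04 ± 0.07 had a narrow interval, −0.19 to 0.10, and an edgeR adjusted p of 0.819.

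POSTN (GeneID 281960), the TGF-beta-induced integrin ligand periostin, measured 42.0, 46.5 and 47.9 CPM with the mimic and 44.8, 43.8 and 50.9 CPM in NC replicates 1 to 3. Its groups also overlapped. The log2 fold change was −0.03 ± 0.09, with an interval of −0.21 to 0.14 and an edgeR adjusted p of 0.901. For SPARC and POSTN the sign turned positive when certain libraries were left out, at up to 0.01 and 0.04 on the log2 scale.

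FBLN1 (GeneID 514588), fibulin 1 of basement membranes and elastic fibres, was at 64.3, 47.8 and 54.6 CPM with the mimic and at 65.2, 64.0 and 61.3 CPM in NC replicates 1 to 3. The NC libraries lay close together, while mimic replicate 1 was within their range and mimic replicate 2 far below it. The log2 fold change of −0.19 ± 0.09 had an interval of −0.38 to −0.0059 and an edgeR adjusted p of 0.252. Without mimic replicate 1 it was −0.31, with an edgeR adjusted p of 0.0356. Without mimic replicate 2 it was −0.09, with an edgeR adjusted p of 0.774, so its size and call depended on single mimic libraries.

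**Figure D3:**
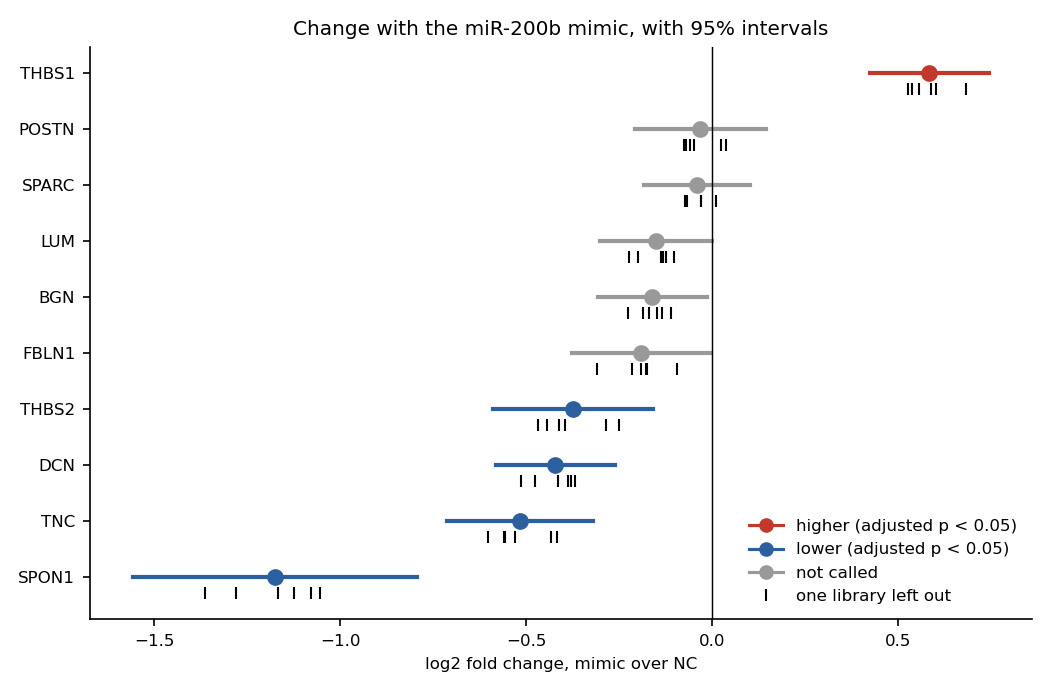
Log2 fold change of mimic over NC for each gene (points) with its 95% interval (lines), coloured by the edgeR call; black ticks show the value with each library left out in turn. THBS1 stands at 0.58 and SPON1 at −1.18, and the ticks of all 5 called genes stay on their side of 0.

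The libraries did not rank the genes alike. Mimic replicate 3 was the mimic library nearest to the NC mean for DCN, LUM, THBS1, SPON1 and SPARC, and for 39.1% of all tested genes. Among called genes it was nearest for 3 of the 5 described here and for 55.8% over all genes. Mimic replicate 1 was nearest for BGN, THBS2, TNC and FBLN1. Without mimic replicate 3 the log2 fold changes were −0.51 for DCN, 0.68 for THBS1 and −1.36 for SPON1, each larger than with all libraries. Mimic replicate 2 was the lowest mimic library for 5 genes, BGN, THBS2, SPARC, TNC and FBLN1, and for 31.0% of all tested genes. NC replicate 2 was the lowest NC library for 8 of the 10 genes, all but THBS1 and FBLN1, and for 36.2% of all tested genes.

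The wider families were examined as lists written from textbook knowledge. Of 14 other small leucine-rich proteoglycans 7 were tested, 1 fell and 6 did not pass, with a median log2 fold change of −0.16. The gene that fell was PRELP, a heparin-binding proteoglycan of basement membranes, from 28.6 ± 2.59 to 20.7 ± 1.39 CPM, at an edgeR adjusted p of 0.0034. FMOD, the collagen-binding fibromodulin, averaged 247 CPM with the mimic and 280.2 in NC, at an edgeR adjusted p of 0.15. ASPN, OGN, EPYC and KERA had at most 9 reads over a group.

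Of 18 relatives with thrombospondin type 1 repeats or related to thrombospondins and spondins, 10 were tested, 3 rose and 7 did not pass, with a median of −0.14. The CCN proteins CTGF and CYR61, matricellular products known as targets of the YAP coactivator, rose 1.37-fold and 1.3-fold. CTGF went from 777 ± 22.5 to 1069 ± 78.0 CPM and CYR61 from 426 ± 4.64 to 553 ± 23.9 CPM, and both had an edgeR adjusted p of 0.000543 or less. The secreted protease ADAMTS1 rose from 3.43 ± 0.989 to 6.12 ± 0.701 CPM, but leaving out mimic replicate 2 gave an edgeR adjusted p of 0.0703 and leaving out NC replicate 3 one of 0.058. THBS3, another thrombospondin, changed by −0.26 on the log2 scale, with an edgeR adjusted p of 0.0788. Without mimic replicate 3 or without NC replicate 2, 3 genes of this list were called lower.

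Of 12 relatives of SPARC, tenascin C and periostin 8 were tested, 1 rose, 1 fell and 6 did not pass, with a median of 0.06. TGFBI, the fasciclin-domain paralog of periostin, fell from 1468 ± 35.5 to 1195 ± 63.4 CPM, at an edgeR adjusted p of 0.00623. The integrin ligand osteopontin, SPP1, rose from 1049 ± 172 to 1422 ± 149 CPM, at an edgeR adjusted p of 0.014. TGFBI lost its call without mimic replicate 2 and without NC replicate 1, at an edgeR adjusted p of up to 0.0671. SPP1 did so without mimic replicate 1, mimic replicate 2 or NC replicate 1, at up to 0.13 in edgeR. FSTL1, which shares the SPARC fold, stood at 586 CPM against 630.3 in NC, with an edgeR adjusted p of 0.439.

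Of 17 fibulins and elastic fibre genes 13 were tested, 4 fell, 1 rose and 8 did not pass, with a median of −0.0029. MFAP4, a microfibril-associated glycoprotein, fell from 57.9 ± 6.32 to 37.5 ± 4.0 CPM, at an edgeR adjusted p of 8.8e-05. MFAP5 and the fibulin EFEMP2 fell by 0.36 and 0.27 on the log2 scale, with edgeR adjusted p-values of 0.00863 and 0.0307. MFAP5 lost its call without NC replicate 1, and EFEMP2 without mimic replicates 2 or 3 or NC replicates 1 or 3, at an edgeR adjusted p of up to 0.0773 and 0.211. The list had 1 lower gene without NC replicate 1 and 2 without mimic replicate 2. Its higher gene, not a fibulin, lost the call without mimic replicate 1 or NC replicate 1. EFEMP1, a fibulin chosen here after its value was seen, lay at the threshold, with an edgeR adjusted p of 0.0502 and a log2 fold change of −0.42.

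Of 8 large and basement membrane proteoglycans 4 were tested and 1 rose, AGRN, a heparan sulphate proteoglycan of basement membranes, from 319 ± 25.1 to 443 ± 47.7 CPM at an edgeR adjusted p of 0.000321. AGRN overlaps an uncharacterised locus in the RefSeq table. Of 13 cell surface proteoglycans 9 were tested and none passed in edgeR, DESeq2 or limma-voom, while 2 were higher and 2 lower at an unadjusted p under 0.05. SDC1, the epithelial syndecan, had the smallest p, with a log2 fold change of 0.25 and an edgeR adjusted p of 0.103. Without mimic replicate 3, or without NC replicate 2, 2 of these genes were called higher and 2 lower.

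Among the enzymes that build chondroitin and dermatan sulphate, the chains carried by decorin and biglycan, 22 were listed and 19 tested. Of these 3 fell, 1 rose and 15 did not pass, with a median of −0.01, where 2.15% of all tested genes fell and 4.3% rose. The list had 0 lower genes without mimic replicate 2, NC replicate 1 or NC replicate 3, and 1 without mimic replicate 1. XYLT1, a xylosyltransferase that starts the chain on the core protein, fell from 49.9 ± 4.76 to 37.0 ± 6.13 CPM, at an edgeR adjusted p of 0.0101. The sulphotransferase CHST11 fell from 20.7 ± 2.57 to 15.4 ± 1.40 CPM, at an edgeR adjusted p of 0.018. CSGALNACT1, which adds the first N-acetylgalactosamine, rose from 60.2 ± 2.17 to 74.7 ± 4.41 CPM, at an edgeR adjusted p of 0.0127. XYLT1 and CHST11 each lost the call without mimic replicate 1, mimic replicate 2, NC replicate 1 or NC replicate 3, and CSGALNACT1 without NC replicate 1, with edgeR adjusted p-values of up to 0.1, 0.172 and 0.0904. All 3 overlap other loci, CSGALNACT1 among them with SH2D4A.

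Receptors of these matrix proteins moved in both directions. Of 19 listed 17 were tested, 4 rose, 2 fell and 11 did not pass, with a median of 0.06. The collagen receptor chain ITGA2 rose from 11.6 ± 1.12 to 23.5 ± 2.41 CPM and ITGA3, an integrin chain known to bind laminin and thrombospondin 1, from 413 ± 23.6 to 624 ± 61.7 CPM. CD36, the scavenger receptor that binds thrombospondins, rose from 13.7 ± 1.90 to 19.9 ± 0.907 CPM, at an edgeR adjusted p of 0.00288, and kept its call with each library left out. CD47, the other classical thrombospondin 1 receptor, was at 152 CPM against 168 in NC, with an edgeR adjusted p of 0.328. The 2 that fell were the integrin chain ITGA8, from 2.67 to 1.30 CPM, and VLDLR, from 28.0 to 20.6 CPM. They changed by −1.04 and −0.44 on the log2 scale, at edgeR adjusted p-values of 0.012 and 0.00701. Without mimic replicate 2 or without NC replicate 1, none of the 17 was called lower by edgeR. ITGA2 overlaps MOCS2.

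Of 14 proteases and chaperones that act on these proteins 10 were tested, 3 fell and 7 did not pass, with a median of −0.16. The membrane collagenase MMP14 fell from 536 ± 27.7 to 414 ± 38.9 CPM, at an edgeR adjusted p of 0.00203, and kept its call with each library left out. The gelatinase MMP2 fell from 2213 ± 16.9 to 1882 ± 120.3 CPM and the procollagen protease enhancer PCOLCE from 50.3 ± 1.57 to 40.8 ± 4.89 CPM, with edgeR adjusted p-values of 0.0369 and 0.04. MMP2 lost its call without any library other than mimic replicate 1, and PCOLCE without mimic replicates 1 or 2 or NC replicates 1 or 3, at an edgeR adjusted p of up to 0.229 and 0.294. MMP14 overlaps RBM23 and MMP2 a tRNA gene.

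**Figure D4:**
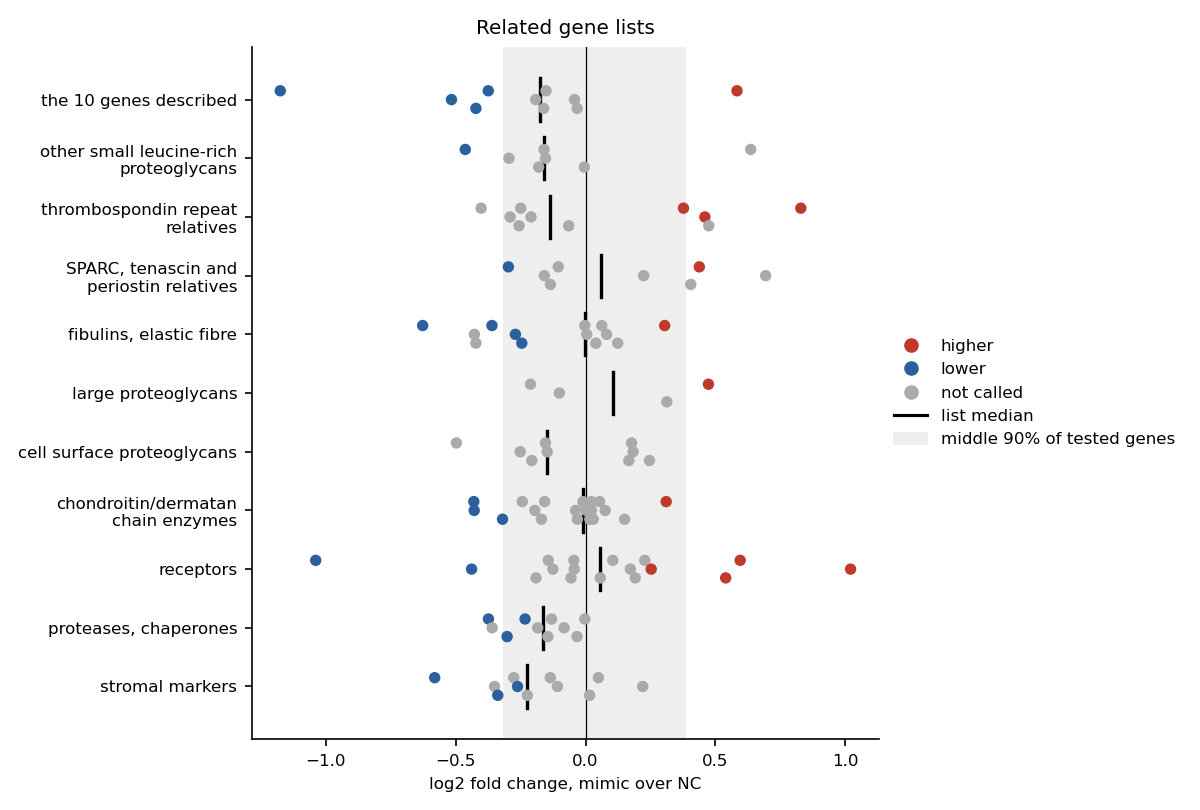
Log2 fold change of mimic over NC for every tested gene of the 10 described, of 9 related lists and of the stromal markers; colours give the edgeR call, black bars the list medians and the grey band the middle 90% of tested genes, from −0.31 to 0.38. Higher and lower genes share a row for the 10 described, fibulins and elastic fibre genes, SPARC, tenascin and periostin relatives, chain enzymes and receptors. DCN, TNC, THBS2, SPON1 and THBS1 lie outside the band.

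Cell type markers moved in the same libraries. Of the 11 tested stromal markers 3 fell and 8 did not pass, with a median of −0.22, and their summed level was 22854 to 25634 CPM with the mimic and 24488 to 25742 CPM in NC, so the sums overlapped. S100A4 fell from 300.2 ± 15.4 to 201 ± 12.2 CPM, PDGFRB from 48.7 ± 2.58 to 38.5 ± 3.63 CPM and PDGFRA from 243 ± 11.8 to 203 ± 12.2 CPM. Their edgeR adjusted p-values were 5.14e-06, 0.0173 and 0.0245. PDGFRB lost its call without mimic replicate 2 or NC replicate 3, at an edgeR adjusted p of up to 0.163. PDGFRA lost its call without mimic replicates 1 or 2 or NC replicates 1 or 3, at up to 0.173 in edgeR. Changes over the list ran from −0.58 to 0.22 on the log2 scale. Without mimic replicate 3 the count of lower stromal markers was 6, without NC replicate 2 it was 5, and without mimic replicate 2 or NC replicate 3 it was 1. Of the 7 tested epithelial markers 5 rose and 2 did not pass, and their summed level was 10432 to 11853 CPM with the mimic and 8588 to 9304 CPM in NC. CDH1 rose 3.24-fold and KRT18 1.94-fold. EPCAM rose from 3 reads over the NC libraries to 155 over the mimic libraries, where it averaged 2.51 CPM, at an edgeR adjusted p of 2.88e-07. Of 8 endothelial markers 3 were tested and of 8 leukocyte markers 2, with summed levels of at most 7.02 and 4.34 CPM in any library, KDR and PTPRC having at most 1 read in all. PECAM1 fell by 0.93 on the log2 scale, at an edgeR adjusted p of 0.0146, and lost the call without mimic replicate 2, NC replicate 1 or NC replicate 3, at up to 0.115. CD14 fell and ERG rose close to the threshold, at edgeR adjusted p-values of 0.0409 and 0.0481. CD14 lost its call in DESeq2, in limma-voom and in 4 of the 6 fits without 1 library (mimic replicate 1, mimic replicate 2, NC replicate 1 and NC replicate 3), at edgeR adjusted p-values of up to 0.204. ERG lost its call under both other scalings, in DESeq2, in limma-voom and in every fit without 1 library except that without mimic replicate 3, at edgeR adjusted p-values of up to 0.246. Of 7 smooth muscle markers 6 were tested and 1 rose, LMOD1, from 11.7 ± 1.69 to 16.7 ± 1.70 CPM, a call lost without mimic replicate 1, NC replicate 1 or NC replicate 3. The part of any of these markers in the changes of the 10 genes was not tested.

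In the annotation of the deposited table, 9 GO or KEGG terms were carried by 3 of the 10 genes each, which are included in the counts of each term. Between 13.6% and 35.2% of the genes tested in these terms were called, beside 6.45% of all tested genes. LUM, BGN and POSTN carry the GO term extracellular matrix, where 5 of the 84 genes tested rose and 9 fell. THBS1, THBS2 and TNC carry the KEGG pathway ECM-receptor interaction, where 15 of the 54 genes tested rose and 4 fell. DCN, LUM and THBS1 carry proteoglycans in cancer, where 19 of the 158 genes tested rose and 10 fell.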

How the data were processed

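The values are raw counts, deposited by the authors as 1 table of genes by library with symbols, GeneIDs and annotation. The submitters' processing notes list Trimmomatic, HISAT2 and HTSeq and give neither version nor role for any of them. Libraries were made with a stranded TruSeq mRNA kit, per the labels' protocols. No source used here states the genome build, annotation or strand setting, so coordinates, transcript lengths and sequences are not printed. Where levels of different genes stand side by side or are summed, they are not corrected for transcript length. Such sums weigh the most abundant genes of a list most. Groups and replicate numbers came from the sample titles.

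A filter on low counts (filterByExpr of edgeR, at its defaults of a count of 10 in enough libraries and 15 in total) left 12217 of 20958 genes, with at least 99.96% of each library's counts. CPM used TMM-scaled totals (factors 0.983 to 1.01). Groups were compared with the quasi-likelihood F test of edgeR 4.0.16 under R 4.3.3, with group as the single factor, two-sided, robust, Benjamini-Hochberg adjusted over all tested genes at 0.05, and it was tested on simulated data. SEs are the log2 fold change over the square root of F. Intervals are 95% from these SEs. Ratios used CPM without a pseudocount and an exact permutation test. Symbols stored as dates (26) were restored through GeneIDs, and overlaps with neighbours were read from the RefSeq gene table (ARS-UCD2.0), which held 97.8% of the GeneIDs.

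The 10 genes and all lists were chosen with earlier results of these data known. The text names the 10 genes and, per list, up to 3 called genes with the smallest p, or the gene with the smallest p where none was called, and the 3 genes nearest in pattern to DCN and to THBS1, among those whose log2 CPM averaged at least 1 and whose symbol was ordinary. Named after their values were seen were FMOD, THBS3, FSTL1, EFEMP1, CD47, ITGA8, VLDLR, KERA, FSIP1 and the genes listed at or near 0. So were the NC levels of KRT8, KRT19, COL1A1, COL1A2 and VIM. Alternatives were RLE and upper quartile scaling, no filter, a stricter filter (at least 1 CPM in each of 3 libraries), limma-voom (limma 3.58.1), DESeq2 1.42.0, the replicate number as a block and leaving out each library.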

Additional observations from a re-analysis of the deposited data

How the results depend on the processing

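Among the 10 genes, 1 was higher and 4 were lower under every scaling, filter and tool tried. With single libraries left out, the count of lower genes ranged from 3 to 5 and that of higher genes stayed at 1. The lower count was 3 without mimic replicate 2, NC replicate 1 or NC replicate 3, each time by the loss of THBS2, and 5 without mimic replicate 1, by the gain of FBLN1. Over all genes, 525 were higher and 263 lower. Leaving out single libraries moved these counts to between 275 and 731 and between 82 and 414, and the cause was not tested. The counts were 322 and 82 without mimic replicate 2, 275 and 93 without NC replicate 1, and the lower count was 153 without NC replicate 3 and 414 when mimic replicate 3 was left out. The replicate block gave 816 higher and 496 lower genes, and 1 higher and 4 lower of the 10. Under the block 1 cell surface proteoglycan was called higher, SDC1 at an edgeR adjusted p of 0.0179, and 1 lower, where none had been; the receptors called higher went from 4 to 7, the thrombospondin relatives called lower from 0 to 3 and the large proteoglycans called higher from 1 to 2. Deviations of same-numbered libraries correlated at −0.05, 0.13 and 0.19, and 3 of 6 libraries correlated best with their own number, so the numbers were not taken to pair libraries. The shift in THBS1 to THBS2 was 0.95 with 1 CPM added and 0.78 to 1.11 with libraries left out. As paired differences it was 0.96, with an exact permutation p of 0.25, the smallest that 3 pairs can give. That p was likewise fixed by the opposite directions of both genes. Other scalings moved the median of all genes by at most 0.01 on the log2 scale. Depth limits SPON1 most.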

Other observations

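The genes whose log2 CPM, centred over the 6 libraries, differed least from that of DCN were ACADSB, a mitochondrial acyl-CoA dehydrogenase, RGS10, a regulator of G protein signalling, and MXI1, a MYC antagonist. Their root mean square differences from DCN were 0.033, 0.0423 and 0.0454 on the log2 scale. ACADSB and RGS10 were called lower, at edgeR adjusted p-values of 0.00546 and 0.0447, but MXI1 was not called, at 0.106. ACADSB was at 34.5, 37.6 and 44.2 CPM in mimic replicates 1 to 3 and at 53.5, 49.1 and 51.8 CPM in NC replicates 1 to 3. For THBS1 the nearest were HIVEP3, a zinc finger protein, at 0.0306, SPECC1, a coiled-coil protein, at 0.0547, and CNN2, an actin-binding calponin, at 0.0646. CNN2 was at 476, 463 and 416 CPM in mimic replicates 1 to 3 and at 281, 313 and 280.2 CPM in NC replicates 1 to 3.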
